A study of Mus musculus with 18 samples.

Results

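The subject is the dependence of the leucine starvation response on GCN2 in E14 mouse embryonic stem cells. It was measured as an interaction: the change from unstarved to leucine-starved cells in Eif2ak4-/- cells (Gcn), minus the same change in wild-type cells (Wt). The 4 groups that define it are Wt Unstarved, Wt Leu, Gcn Unstarved and Gcn Leu, with 3 libraries each, or 12 of the 18 libraries of the series. The other 6 libraries are arginine-starved cells of both genotypes, which shared in the estimate of the spread and served for 1 comparison of the amino acids. E14 is an established embryonic stem cell line, kept here in serum with leukaemia inhibitory factor (LIF). Starvation lasted 3 h in SILAC medium with 5% dialyzed serum, LIF and lysine but no leucine, and the unstarved cells of both genotypes had such medium with every amino acid. How the Gcn line was derived, and whether it is a single clone, is not given in the sources used here, so genotype and the history of the line cannot be told apart. The labels do not state whether the replicates of a group came from separate cultures. The p-values therefore measure only the spread between these libraries, which may be technical.

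GCN2, the kinase encoded by Eif2ak4, binds uncharged tRNA, which builds up when an amino acid runs short, and then phosphorylates the translation initiation factor eIF2α. Phosphorylated eIF2α lowers the initiation of most mRNAs but favours translation of a few, among them Atf4. ATF4 is a bZIP transcription factor that pairs with C/EBP proteins and drives genes of amino acid transport, amino acid synthesis and tRNA charging, a programme known as the integrated stress response (ISR). Other eIF2α kinases, such as PERK in the endoplasmic reticulum, feed the same programme, and mTORC1 senses leucine by a separate route through the sestrins.

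The 12 libraries held 21.3 to 38.8 M counts (M, mega). Levels are given as CPM, counts per M counts of the library after edgeR's TMM scaling, and changes as log2 differences from edgeR with their 95% intervals or standard errors (SE, n = 3 per group). A gene was called when its Benjamini-Hochberg adjusted p was under 0.05 over 16924 genes. Eif2ak4 itself stood at 32.2, 33.4 and 29.7 CPM in Wt Unstarved, 27, 27.6 and 28.1 in Wt Leu, 6.23, 4.84 and 4.62 in Gcn Unstarved and 4.5, 4.04 and 5.44 in Gcn Leu. The genotypes did not overlap, and the interaction was 0.05 (95% interval -0.32 to 0.42). The 10 embryonic stem cell markers summed to between 7420 and 9550 CPM in all 12 libraries. Fibroblast markers, of which 5 of 8 passed the filter on low counts, summed to 17 to 26.6 CPM in Wt and 7.06 to 10.4 CPM in Gcn, and the 7 two-cell-like markers to 16.1 to 21.2 CPM in Wt and 60.4 to 93.7 CPM in Gcn. Within a genotype the fibroblast and two-cell-like sums overlapped between unstarved and leucine-starved cells, and none of those marker genes was called in the interaction. The stem cell sum was higher in Gcn Leu (8970 to 9550 CPM) than in Gcn Unstarved (8390 to 8810) and overlapped in Wt. Its members did not move together. By group means, Zfp42 (1160 to 1660 CPM), Esrrb (924 to 1260) and Nanog (559 to 721) rose in Gcn. Pou5f1 (2500 to 2220), Utf1 (451 to 327) and Tfcp2l1 (353 to 297) fell there. In Wt, Zfp42 (831 to 1100) and Esrrb (801 to 967) also rose and Pou5f1 (2590 to 2170) fell. Trophoblast markers (4 of 5 tested) went from 48.5 to 56 down to 42.5 to 44.9 CPM in Wt and from 41.7 to 46 up to 47.8 to 57.1 CPM in Gcn, without overlap within a genotype. Most of that sum was Tfap2c (interaction 0.55, adjusted p = 0.0624), and Cdx2, Eomes and Hand1 lay below 5 CPM in each group mean. The 5 primed epiblast markers summed to 312 to 370 CPM in Wt and 191 to 227 CPM in Gcn. They overlapped within a genotype, as did the 6 primitive endoderm markers (12.9 to 35.6 CPM). Most of the primed epiblast sum was Dnmt3b, with group means of 287 and 289 CPM in Wt and 158 and 139 in Gcn. Otx2 went the other way, at 20.9 in both Wt groups and 42.2 and 57.2 CPM in Gcn. The 4 neural markers summed to 225 to 268 CPM unstarved and 255 to 276 starved in Wt. In Gcn they summed to 256 to 272 and 229 to 256 CPM. Among them Nes was lower in Gcn Unstarved than Wt Unstarved (8.8 against 50.1 CPM) and Tubb3 higher (234 against 179). The part of these differences in the results was not tested. On the third principal component of the 12 libraries (8.02% of the variance) both Gcn libraries numbered 1 lay at -23.6 and -26.4 and the other 4 Gcn libraries between 9.72 and 18. In bulk RNA, fewer cells of a type and less RNA per cell cannot be told apart.

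Leucine starvation raised a set of ATF4 programme genes in wild-type cells that did not rise, or fell, in cells without GCN2, while 2336 genes changed in the same direction in both genotypes. The interaction was called for 139 of 16924 genes (0.821%), 113 lower (0.668%) and 26 higher (0.154%) in Gcn. Of these, 39 of the lower genes and 2 of the higher ones differed by at least 1 on the log2 scale. At an unadjusted p under 0.05 the count was 2290. The split moved with the scaling: with library size as the only scaling, 80 genes were higher and 77 lower. Leaving out 1 library at a time gave from 74 genes (without Gcn Unstarved 2) to 257 (without Gcn Leu 3). DESeq2 called 373 genes, 128 higher and 245 lower. With the replicate number as a block, a pairing that the labels do not state, edgeR called 1878 genes, 749 higher and 1129 lower. The count of 139 is from the fit without that block.

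**Figure D1:**
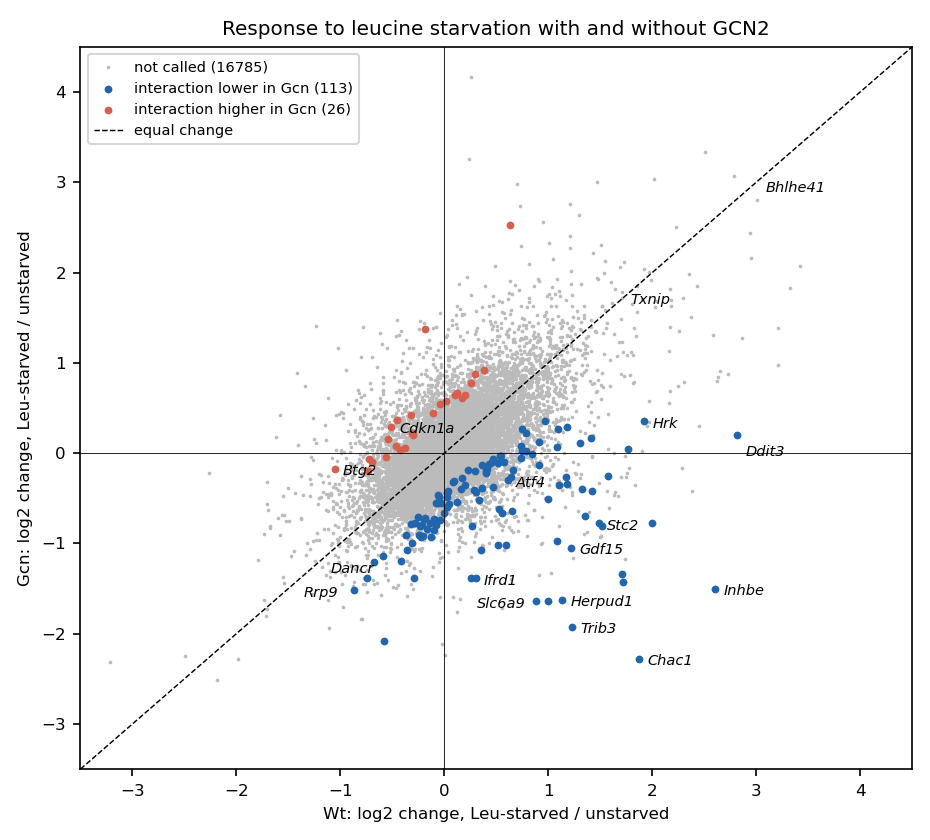
Log2 change with leucine starvation in Wt (horizontal axis) and in Gcn (vertical axis) for 16924 genes, 1 point a gene, with the 113 genes called lower in the interaction in blue and the 26 called higher in red. The dashed line marks equal change: Bhlhe41 and Txnip lie near it, while Chac1, Inhbe and Trib3 lie to the right of zero in Wt and below zero in Gcn.

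The 2 responses that make up the interaction share no library. In Wt, 3706 genes were called (21.9%), 2027 higher (12%) and 1679 lower (9.92%). In Gcn, 4665 were called (27.6%), 2377 higher (14%) and 2288 lower (13.5%), or 3296 higher and 1474 lower with library size only. Both lists held 2366 genes, 63.8% of the Wt list and 50.7% of the Gcn list, and 2336 of them changed in the same direction. Across all genes the 2 changes had a Pearson correlation of 0.574 (Spearman 0.561, genes not being independent replicates). The 30 genes called in opposite directions comprised 26 that rose in Wt and fell in Gcn and 4 that fell in Wt and rose in Gcn. A further 34 interaction genes were called up in Wt alone and 36 were called down in Gcn alone, and 14 fell in both with the larger fall in Gcn. The 113 genes called lower had a median change of 0.40 in Wt and of -0.55 in Gcn, against 0.01 and -0.01 over all genes. Those medians describe the genes that the interaction picked and are no separate test. Before starvation the genotypes already differed in 5548 genes (32.8%), 2802 higher (16.6%) and 2746 lower (16.2%) in Gcn, so the 2 responses started from different levels.

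Chac1, an enzyme that degrades glutathione, had the lowest interaction of all genes tested. It stood at 37.9, 17.7 and 28.2 CPM in Wt Unstarved, 92.3, 108 and 108 in Wt Leu, 28.6, 22.6 and 18.7 in Gcn Unstarved, and 4.57, 3.81 and 5.89 in Gcn Leu. The unstarved groups overlapped, every starved Wt library lay above them and every starved Gcn library below. Chac1 rose by 1.87 in Wt and fell by 2.28 in Gcn on the log2 scale, an interaction of -4.15 (SE 0.32, adjusted p = 2.66e-06), or 17.8-fold. Trib3, a pseudokinase that restrains ATF4 signalling, followed the same pattern. Its levels were 81.2, 47.6 and 67.4 CPM in Wt Unstarved, 128, 170 and 162 in Wt Leu, 68.1, 58.4 and 55.9 in Gcn Unstarved, and 17.7, 14.4 and 16.1 in Gcn Leu. The interaction of Trib3 was -3.15 (SE 0.22, adjusted p = 1.19e-07), made up of 1.23 in Wt and -1.92 in Gcn. Herpud1, which acts in the degradation of proteins from the endoplasmic reticulum, went from 29.4 ± 6.6 to 64.6 ± 6.9 CPM in Wt and from 42.9 ± 4.8 to 13.9 ± 0.5 CPM in Gcn (SD, n = 3), an interaction of -2.76 (SE 0.18, adjusted p = 1.09e-08). In the unstarved wild type, library 1 was the highest and library 2 the lowest for each of these 3 genes.

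Of 29 tested ISR effectors, 9 were called lower in the interaction and 0 higher, with a median of -0.09, where all tested genes had a median of -0.01. Slc7a11, the cystine transporter subunit, counted here and among the transporters, had an interaction of -3.14 (adjusted p = 0.000816), although its level was 3.03 ± 0.36 CPM even in Wt Leu. Vldlr, a lipoprotein receptor, stood at -2.32 and Nupr1, a chromatin-binding stress protein, at -2.04. Hrk, a pro-apoptotic BH3-only protein, stood at -1.57, and Gpt2, a mitochondrial alanine transaminase, at -1.29. Nupr1 lay at 15.5, 11.2 and 14.9 CPM in Wt Unstarved and 28.9, 38.6 and 38.8 in Wt Leu, against 15.3, 14 and 14.4 in Gcn Unstarved and 9.14, 8.69 and 9.2 in Gcn Leu. The starved groups of Nupr1 lay on either side of the unstarved ones. Sesn2, a sestrin that senses leucine for mTORC1, was at the edge of the test. It stood at 374, 380 and 406 CPM in Wt Unstarved, 300, 362 and 359 in Wt Leu, 380, 409 and 341 in Gcn Unstarved and 234, 249 and 206 in Gcn Leu. Its interaction was -0.53 (adjusted p = 0.0489), and the call was lost under 13 of 21 alternatives (highest adjusted p = 0.168). Ddit4, an mTORC1 inhibitor, was not called in the fit without the replicate number (interaction -0.69, 95% interval -1.22 to -0.15, adjusted p = 0.233).

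Of 17 bZIP transcription factors of the programme tested, 7 were called lower and 0 higher (median -0.28). Ddit3, which encodes CHOP (GRCm38, chromosome 10, 127290774 to 127296288), stood at 11.1, 5.78 and 8.57 CPM in Wt Unstarved, 57.1, 62.3 and 61.4 in Wt Leu, 15, 16.5 and 15.5 in Gcn Unstarved, and 15.3, 20.5 and 18.2 in Gcn Leu. Each Gcn library lay above the unstarved wild type and below the starved one, and the Gcn groups overlapped. The change of Ddit3 was 2.82 in Wt, and in Gcn it was 0.20 and not called (adjusted p = 0.387), with an interaction of -2.61 (SE 0.23, adjusted p = 8.85e-07). Atf4 mRNA itself (chromosome 15, 80255184 to 80257541) stood at 529, 377 and 481 CPM in Wt Unstarved, 665, 729 and 726 in Wt Leu, 435, 402 and 385 in Gcn Unstarved, and 338, 344 and 310 in Gcn Leu. Within each genotype its starved and unstarved libraries did not overlap. Atf4 rose by 0.61 in Wt and fell by 0.30 in Gcn, an interaction of -0.91 (SE 0.13, adjusted p = 0.000344). These values are mRNA levels and say nothing of how much Atf4 mRNA was translated. Cebpb, a C/EBP partner of ATF4, had an interaction of -1.84, Atf3, a stress-induced repressor, of -1.83, and Jdp2, a Jun-dimerizing factor, of -1.52. Cebpg was at -0.60 and Nfe2l1, a regulator of proteasome genes, at -0.59, the latter lost under 6 of 21 alternatives (highest adjusted p = 0.0805). Atf3 stood apart already before starvation, at 7.16 ± 3.1 CPM in Wt Unstarved and 2.54 ± 0.14 CPM in Gcn Unstarved, and reached 21.6 ± 1.2 CPM in Wt Leu and 2.13 ± 0.1 CPM in Gcn Leu (SD, n = 3). Atf5, another ATF4-related factor, was not called (-0.28, 95% interval -0.55 to -0.02, adjusted p = 0.338).

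**Figure D2:**
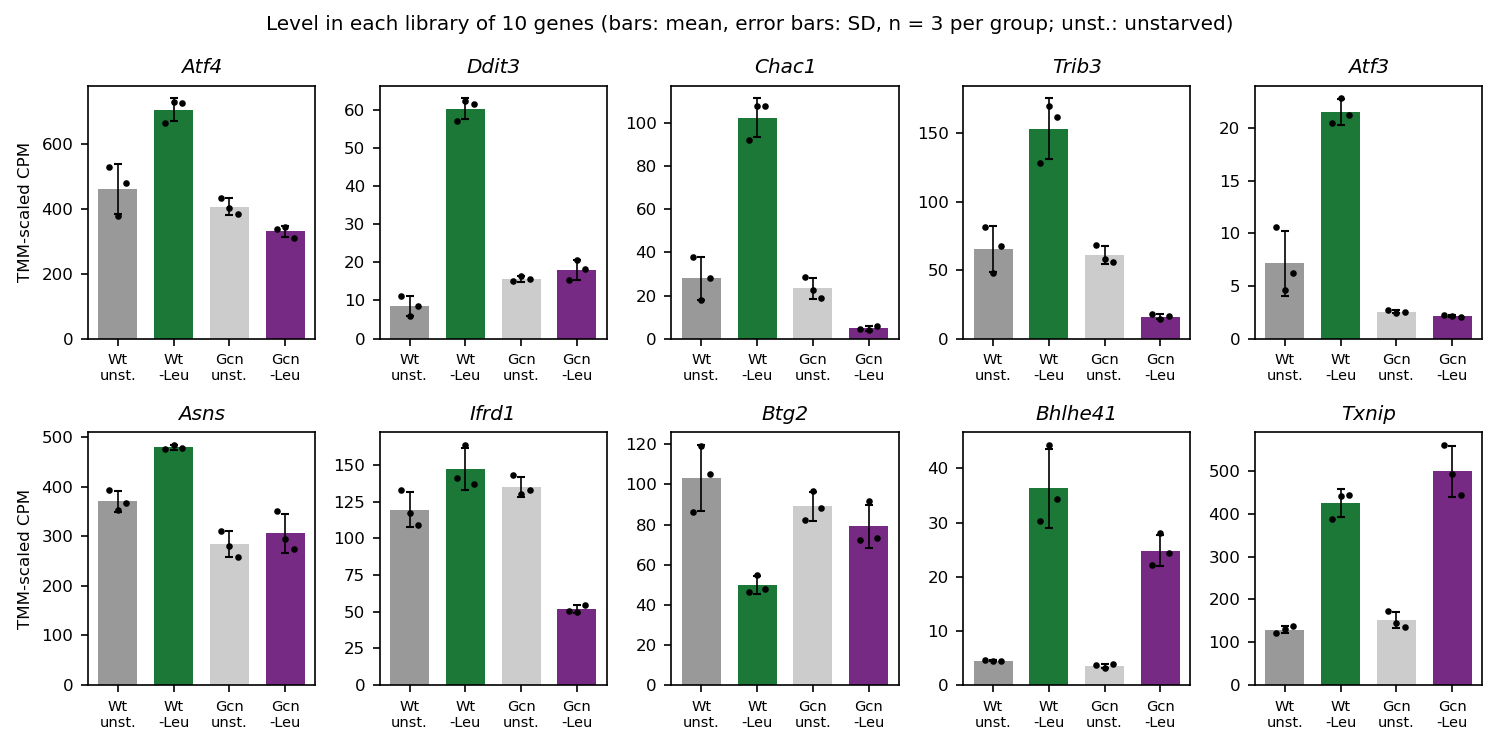
Level of 10 genes in TMM-scaled CPM (vertical axes, starting at 0) in the 12 libraries: points are libraries, bars group means and error bars SD (n = 3). Chac1 and Trib3 rise in Wt and fall in Gcn with leucine starvation, Btg2 falls in Wt with overlapping groups in Gcn, and Bhlhe41 and Txnip rise in both genotypes.

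Of 11 secreted stress factors tested, 5 were called lower and 0 higher, with a median of -0.41. Inhbe, an activin subunit, was low in absolute terms, at 1.74, 1.03 and 1.07 CPM in Wt Unstarved, 5.87, 9.25 and 8.72 in Wt Leu, 2.05, 1.89 and 1.76 in Gcn Unstarved, and 0.354, 0.775 and 0.809 in Gcn Leu. The 4 groups of Inhbe did not overlap, but the unstarved genotypes lay close (1.74 and 1.76 CPM at the nearest). They were not called different (edgeR, log2 0.53, adjusted p = 0.163). The interaction of Inhbe was -4.11 (SE 0.39, adjusted p = 1.36e-06). Adm2, an adrenomedullin-family peptide, had an interaction of -3.06, and Stc2, stanniocalcin 2, of -2.26. Gdf15, a stress-induced hormone that lowers appetite, stood at 11.3, 10.4 and 13.4 CPM in Wt Unstarved, 21.6, 29.6 and 30.2 in Wt Leu, 18, 20.6 and 16.2 in Gcn Unstarved, and 8.12, 9.75 and 8.57 in Gcn Leu. Starvation thus left Gdf15 above both unstarved groups in Wt and below both in Gcn, with an interaction of -2.27 (SE 0.19, adjusted p = 1.19e-07). Vegfa, the vascular growth factor, was the fifth, at -1.62.

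Promoters were read for the genes whose changes differed most, to show where the letters of a C/EBP-ATF response element lie. This element joins a C/EBP and an ATF recognition sequence and is a known binding site of ATF4 with a C/EBP partner. The motif searched was TGATGNAA on both strands, within the 250 bases before the RefSeq transcription start (GRCm38.p6). Of all 32851 RefSeq promoters, 1134 held it (3.45%). Among the 113 genes called lower, 91 had a promoter entry and 14 of those held the motif (15.4%), and among the 26 called higher, 22 had an entry and 0 held it. Of the 34 called lower by at least 1 on the log2 scale with an entry, 9 held it (26.5%), and of the other 57, 5 (8.77%). Because an entry was found for only 11508 of 16919 tested symbols, of which 276 held the motif (2.4%), the shares were not compared by a test. The windows below, of 150 bases each, are from 7 called genes and from Asns, which was not called. Capitals mark the motif, written TTGCATCA where TGATGCAA lies on the other strand, and each window runs 5′ to 3′ on the strand of its gene.
Chac1 promoter (chr2:119350992-119351141, plus strand): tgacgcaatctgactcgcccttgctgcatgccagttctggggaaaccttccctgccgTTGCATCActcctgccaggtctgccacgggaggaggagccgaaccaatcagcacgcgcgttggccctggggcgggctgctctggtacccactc
Inhbe promoter (chr10:127351949-127352098, minus strand): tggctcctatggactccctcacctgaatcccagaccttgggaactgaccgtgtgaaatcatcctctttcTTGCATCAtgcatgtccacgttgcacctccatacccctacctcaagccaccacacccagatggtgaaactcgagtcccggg
Slc7a11 promoter (chr3:50443614-50443763, minus strand): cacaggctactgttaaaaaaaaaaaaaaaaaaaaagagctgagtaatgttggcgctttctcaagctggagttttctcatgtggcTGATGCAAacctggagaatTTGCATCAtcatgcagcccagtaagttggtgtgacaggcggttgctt
Herpud1 promoter (chr8:94386246-94386395, plus strand): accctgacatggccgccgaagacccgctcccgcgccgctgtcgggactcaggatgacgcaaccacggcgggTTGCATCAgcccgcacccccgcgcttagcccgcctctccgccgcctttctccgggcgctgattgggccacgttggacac
Vldlr promoter (chr19:27216770-27216919, plus strand): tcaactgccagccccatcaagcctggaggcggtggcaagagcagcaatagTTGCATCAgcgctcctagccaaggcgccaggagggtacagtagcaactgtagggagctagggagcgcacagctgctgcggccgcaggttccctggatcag
Nupr1 promoter (chr7:126625502-126625651, minus strand): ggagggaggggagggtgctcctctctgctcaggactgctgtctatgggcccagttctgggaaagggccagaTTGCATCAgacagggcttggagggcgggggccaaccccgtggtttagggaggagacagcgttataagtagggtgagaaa
Atf3 promoter (chr1:191183365-191183514, minus strand): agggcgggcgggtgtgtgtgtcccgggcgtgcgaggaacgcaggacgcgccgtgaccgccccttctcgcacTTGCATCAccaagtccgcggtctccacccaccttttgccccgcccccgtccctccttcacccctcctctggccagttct
Asns promoter (chr6:7693210-7693359, minus strand): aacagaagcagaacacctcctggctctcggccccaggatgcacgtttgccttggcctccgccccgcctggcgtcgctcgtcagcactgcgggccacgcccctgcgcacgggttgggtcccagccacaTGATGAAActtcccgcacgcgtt

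In Chac1 the first base of the match lies 193 bases before the start and in Inhbe 181 bases, in Herpud1 112, in Vldlr 200, and in Nupr1 and Atf3 110 each. Slc7a11 holds 2 matches, 66 and 47 bases before its start. The other called genes with a match hold 1 each: Hrk (114 bases), Jdp2 (33), Arl14ep (116), EU599041 (122), Accsl (246), Aars (112) and Tars (15). Sh3bp5l, which fell in both genotypes and was not called in the interaction (-0.20), also holds 1 (235 bases). The windows of Trib3, Ddit3, Sesn2, Atf4, Cebpb, Slc6a9, Adm2, Stc2 and Gdf15 do not hold these letters, which says only that they are not in this window. A match describes letters and is not a measured binding site. Asns holds TGATGAAA 23 bases before its start and had the leucine interaction closest to 0 of these 8 genes: it stood at 393, 352 and 367 CPM in Wt Unstarved, 476, 485 and 477 in Wt Leu, 311, 281 and 259 in Gcn Unstarved, and 350, 294 and 274 in Gcn Leu. Asparagine synthetase, its product, is a textbook ATF4 target. The Wt groups of Asns did not overlap and the Gcn groups did. Its change was 0.37 in Wt (adjusted p = 0.0043) and 0.11 in Gcn (adjusted p = 0.424), and the interaction of -0.26 was not called in the fit without the replicate number (95% interval -0.53 to 0.00, adjusted p = 0.367).

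Amino acid transporters were lower in the interaction for 6 of 29 tested genes and higher for 0, with a median of -0.31. Slc6a9, a glycine transporter, went from 17.7, 11.2 and 15.2 to 28.1, 30.2 and 30 CPM in Wt and from 13.2, 13.1 and 12 to 4.75, 3.78 and 3.82 CPM in Gcn. The starved libraries of Slc6a9 lay above all unstarved ones in Wt and below all of them in Gcn, with an interaction of -2.64 (SE 0.19, adjusted p = 1.09e-08). Slc1a4, a neutral amino acid exchanger, was at -1.72, and Slc7a1, a carrier of arginine and lysine, at -1.21. The 2 chains of the LAT1 carrier, which imports leucine, differed in how they reached their interactions. Slc3a2, the heavy chain, stood at 385, 333 and 385 CPM in Wt Unstarved, 614, 619 and 625 in Wt Leu, 303, 299 and 285 in Gcn Unstarved, and 311, 316 and 277 in Gcn Leu (interaction -0.73, adjusted p = 0.001). Slc7a5, the light chain, stood at 626, 571 and 655 CPM in Wt Unstarved, 591, 600 and 653 in Wt Leu, 458, 429 and 395 in Gcn Unstarved, and 299, 257 and 254 in Gcn Leu (interaction -0.65, adjusted p = 0.00811). The first rose in Wt by 0.75 with overlapping groups in Gcn, and the other overlapped in Wt (-0.01) and fell in Gcn by 0.66.

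For amino acid synthesis, 3 of 25 tested genes were called lower and 0 higher (median -0.25). Besides Gpt2 these were Mthfd2, a mitochondrial one-carbon enzyme, at -0.90 (adjusted p = 0.000104) and Aldh18a1, which starts proline synthesis, at -0.74 (adjusted p = 0.00764). Mthfd2 rose from 266 ± 34 to 414 ± 6.1 CPM in Wt and fell from 160 ± 12 to 133 ± 8.4 CPM in Gcn (SD, n = 3). Of 20 cytosolic tRNA synthetases, 4 were called lower and 0 higher (median -0.26): Iars, for isoleucine, at -0.70, Aars, for alanine, at -0.55, Nars, for asparagine, at -0.50 and Tars, for threonine, at -0.45. The calls of Iars and Aars were lost under 6 and 4 of 21 alternatives (highest adjusted p = 0.0726 and 0.0778). Lars, which charges the tRNA of the withheld amino acid, rose in Wt (0.51, adjusted p = 0.000503), was at -0.05 in Gcn, and missed the threshold in the interaction (-0.55, 95% interval -0.83 to -0.27, adjusted p = 0.0518).

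These 6 lists of ISR and amino acid genes share some members. Across them, 32 of 126 tested genes were called lower (25.4%, against 0.668% of all genes) and 0 higher. At an unadjusted p under 0.05 (edgeR), 6 of the 126 were higher, against 944 of all 16924 genes. DESeq2 gave 3 calls higher, 2 in the bZIP list and 1 among the effectors. The 32 genes made up 28.3% of the 113 genes called lower, so 81 of those genes lay outside the lists. The lists were chosen with earlier results of these data known, so these shares describe the lists and are no separate test. Among regulators of eIF2α itself, 1 of 16 was called: Ppp1r15a (GADD34), the phosphatase subunit that reverses eIF2α phosphorylation, at -0.63 (adjusted p = 0.0237), a call lost under 6 of 21 alternatives (highest adjusted p = 0.0845).

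**Figure D3:**
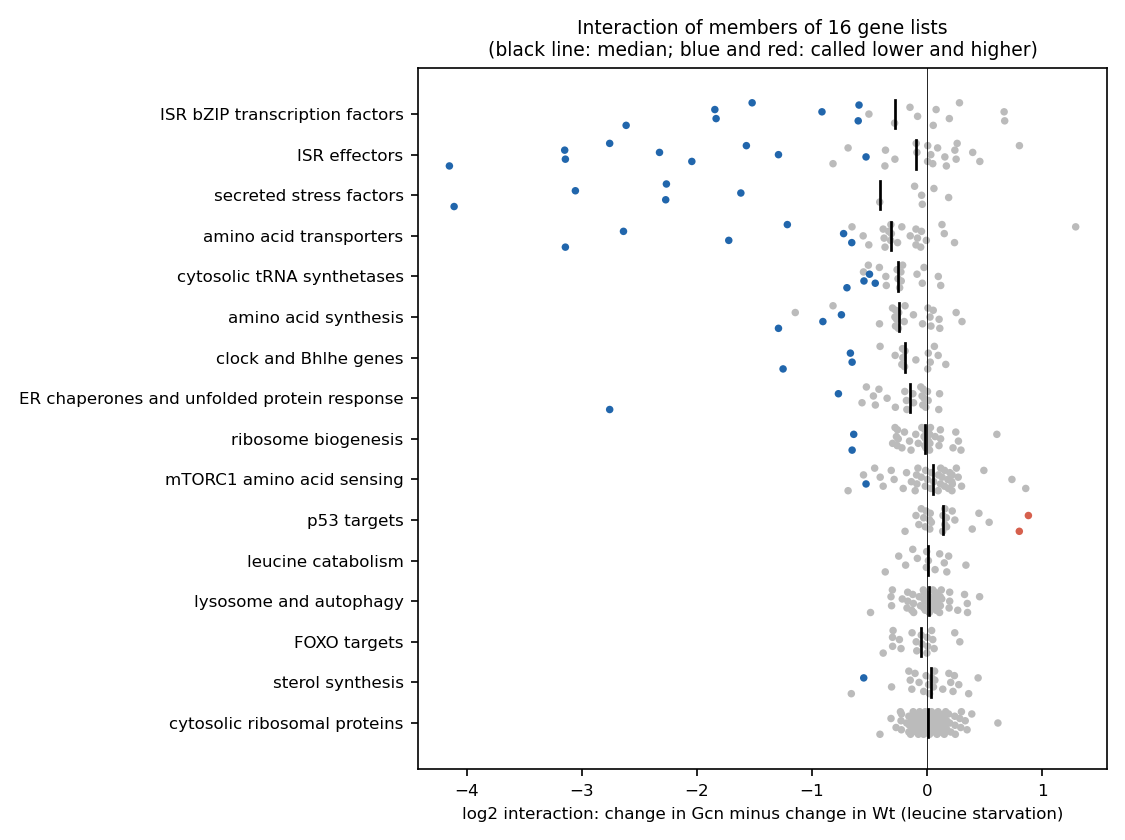
Interaction on the log2 scale (horizontal axis; below 0, lower change in Gcn) of each tested member of 16 gene lists, 1 point a gene, with black lines at list medians. Blue points, called lower, fall mostly in the lists of ISR and amino acid genes, and no member of the lysosome, FOXO, leucine catabolism or ribosomal protein lists is coloured.

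Other groups of genes gave few or 0 calls, in a test that called 0.821% of all genes, so that 0 calls in a list of these sizes is near the background. Of 42 genes of mTORC1 amino acid sensing, Sesn2 was the 1 called (median 0.05). Neither of the lists closest to leucine use and nutrient recycling had a call: 0 of 14 leucine catabolism genes (median 0.00) and 0 of 46 lysosome and autophagy genes (median 0.02), although 20 of the latter rose in Wt (against 12% of all genes) and 22 in Gcn (against 14%). At 0 of 19, FOXO targets had none either, while 12 rose in Wt and 9 in Gcn, to be read against the same shares of all genes. None of 85 cytosolic ribosomal protein genes was called, with a median of 0.01 and a range of -0.41 to 0.62. In these 4 lists, edgeR gave an unadjusted p under 0.05 to 3 leucine catabolism genes, 6 lysosome genes, 3 FOXO targets and 1 ribosomal protein gene. Over all 16924 genes that count was 2290. DESeq2 called 2 lysosome genes and 1 ribosomal protein gene, and limma-voom called 0 in all 4. The fit with the replicate number as a block called 1878 genes in all. Its calls within the lists are not given here, so 0 calls holds for the fits named. Ribosome biogenesis had 2 of 35 called lower: Rrp9, a U3 snoRNP protein, at -0.65 and Nop14, which acts in small subunit assembly, at -0.64. Rrp9 fell in both genotypes, from 278, 254 and 288 to 145, 150 and 154 CPM in Wt and from 233, 254 and 258 to 87.2, 91.6 and 81.1 CPM in Gcn. The starved libraries of Rrp9 were lower in Gcn than in Wt without overlap, and the unstarved groups overlapped. Nop14 was at -0.14 in Wt (adjusted p = 0.164) and fell by 0.77 in Gcn.

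Among ER chaperones and unfolded protein response genes, 2 of 24 were called lower, Herpud1 and Xbp1 (median -0.15). Xbp1, a transcription factor of the unfolded protein response, began higher in Gcn, at 92.1, 75 and 75.1 CPM against 41.3, 44.3 and 53.6 in Wt, and ended at 37.6, 32.1 and 36.4 CPM in Gcn and 35.4, 34.9 and 33.6 in Wt. The starved groups of Xbp1 overlapped and the unstarved groups did not, and its interaction was -0.77 (adjusted p = 0.00411). Clock genes had 3 of 17 called lower (median -0.20): Ciart, a repressor of the circadian feedback loop, at -1.25 (adjusted p = 0.000169), and the nuclear receptors Nr1d1 at -0.67 and Nr1d2 at -0.65. Ciart rose from 16.5, 12.8 and 17 to 35.3, 43.3 and 44.7 CPM in Wt and stood at 16.7, 15 and 13.2 before and 17.6, 17.9 and 14.9 CPM after starvation in Gcn. Of the 12 libraries only the 3 of Wt Leu stood apart for Ciart. The calls of Nr1d1 and Nr1d2 were lost under 3 and 7 of 21 alternatives (highest adjusted p = 0.0767 and 0.0819). Sterol synthesis had 1 of 24 called, Dhcr7 (-0.55), lost under 8 of 21 alternatives (highest adjusted p = 0.123), and the NRF2 list had 1 of 16, the already named Slc7a11. Lists of fatty acid synthesis (14 tested), heat shock (15), naive pluripotency (21), replication (28), Notch (18), primed and lineage markers (25), ERK feedback (14), S-adenosylmethionine cycle (12), two-cell-like (15), fibroblast (5), histone (52) and mitochondrial genes (7) had 0 called. At an unadjusted p under 0.05, edgeR counted from 0 to 8 genes in each of those 12 lists, against 2290 of all 16924 genes. DESeq2 called 3 in replication, 2 each in ERK feedback and Notch, and 1 each in naive pluripotency, primed and lineage markers and the S-adenosylmethionine cycle. With limma-voom, 0 were called in all 12. Calls in these lists with the replicate number as a block are likewise not given here. Medians of those 12 lists ran from -0.35 for histone transcripts, which mostly lack poly(A) tails, to 0.16 for naive pluripotency.

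The genes called higher in Gcn were fewer and changed less. Btg2 (chromosome 1, 134075170 to 134079120), an antiproliferative factor that recruits deadenylases and a p53 target, had the highest interaction among those that reached 5 CPM. It stood at 86.1, 119 and 105 CPM in Wt Unstarved, 46.3, 54.7 and 48 in Wt Leu, 82.2, 96.8 and 88.2 in Gcn Unstarved, and 72.2, 91.5 and 73.4 in Gcn Leu. Only the starved wild type lay apart from the other groups of Btg2, and the interaction was 0.88 (SE 0.17, adjusted p = 0.00811). Cdkn1a, the p53 target that encodes the cyclin-dependent kinase inhibitor p21, stood at 130, 153 and 166 CPM in Wt Unstarved, 89.9, 111 and 114 in Wt Leu, 89.5, 83.2 and 83.4 in Gcn Unstarved, and 119, 105 and 90.3 in Gcn Leu. The starved groups of Cdkn1a overlapped, reached by a fall in Wt (-0.51) and a rise in Gcn (0.29, adjusted p = 0.0488), with an interaction of 0.80 (adjusted p = 0.0085). These 2 were the only called members among 24 p53 targets (median 0.14). Btg2 was also the 1 gene called among 20 mRNA decay factors (median -0.09), and with Atf3 it made up the calls among 23 immediate early genes. Rpp25l, related to a subunit of RNase P, fell by 0.46 in Wt and rose by 0.37 in Gcn (interaction 0.83, adjusted p = 0.00155). Cdc25a, a phosphatase that drives entry into S phase, went from 162 ± 5.9 to 132 ± 4.9 CPM in Wt and from 150 ± 3.1 to 173 ± 8.4 CPM in Gcn (SD, n = 3), an interaction of 0.50 (adjusted p = 0.0145). Slc35a4 fell from 108, 104 and 110 to 65.8, 64.9 and 68.4 CPM in Wt and stood at 83.1, 86.9 and 81.3 before and 85.4, 79.5 and 70 CPM after starvation in Gcn. The Gcn groups of Slc35a4 overlapped and its interaction was 0.60 (adjusted p = 0.00395). Ube2g2, a ubiquitin-conjugating enzyme of ER-associated degradation, rose in Gcn from 48.1, 44.8 and 47.3 to 71.5, 71.5 and 61.3 CPM and was at -0.04 in Wt (interaction 0.58, adjusted p = 0.00764). Itpripl1 was at 0.70 (adjusted p = 0.00829). Rhob, Pced1b, Gfod2, Mfn2, Pqlc1, Uck1 and Epp13 were called at 0.53 to 0.74, and each of these 7 calls was lost when at least 5 of the single libraries in turn were left out.

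Much of the starvation response was called in both genotypes without a call in the interaction: 1236 genes rose in both and 1080 fell in both. Bhlhe41, a transcriptional repressor, stood at 4.66, 4.41 and 4.47 CPM in Wt Unstarved, 30.3, 44.4 and 34.3 in Wt Leu, 3.61, 3.14 and 3.93 in Gcn Unstarved and 22.2, 28 and 24.3 in Gcn Leu. It rose by 3.01 in Wt and 2.80 in Gcn, with a difference of -0.21 (95% interval -0.66 to 0.24). Txnip, a thioredoxin-binding protein that lowers glucose uptake, went from 121, 130 and 138 to 388, 442 and 445 CPM in Wt and from 174, 146 and 136 to 562, 493 and 444 CPM in Gcn. The difference for Txnip was 0.01 (95% interval -0.28 to 0.29). Klf10, a zinc finger transcription factor, rose by 1.64 and 1.82, and Aqp3, an aquaglyceroporin, by 1.51 and 1.63 (Wt and Gcn), with differences of 0.18 (95% interval -0.05 to 0.41) and 0.12 (-0.18 to 0.41). Among genes that fell in both, Dancr, a long non-coding RNA, changed by -1.17 and -1.26 (difference -0.09, 95% interval -0.47 to 0.29) and Hpdl by -1.12 and -1.22 (difference -0.10, 95% interval -0.43 to 0.23). Zc3h12a, an endoribonuclease that degrades cytokine mRNAs, changed by -1.12 and -1.63, a difference of -0.51 (95% interval -0.91 to -0.11) that was not called (adjusted p = 0.229). The intervals set how far the genotypes could still differ, and a p over the threshold does not show equal responses.

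A few further genes were chosen after their values were seen, as were Hrk, Nfe2l1, Slc7a5 and Lars among the lists and Zfp423. Ifrd1, a transcriptional coregulator whose mRNA carries an upstream reading frame, stood at 133, 117 and 109 CPM in Wt Unstarved, 141, 164 and 137 in Wt Leu, 143, 130 and 133 in Gcn Unstarved, and 50.2, 50 and 54.9 in Gcn Leu. The starved Gcn libraries stood apart from the other 9. Its interaction was -1.69 (SE 0.13, adjusted p = 2.12e-08), with a change of 0.30 in Wt and -1.39 in Gcn. Tsc22d3 (GILZ), better known as a glucocorticoid-induced gene, rose from 4.39, 3.75 and 4.8 to 14, 16.5 and 13.5 CPM in Wt and stood at 5.79, 4.18 and 4.28 before and 5.74, 4.49 and 4.48 CPM after starvation in Gcn. For Tsc22d3 only Wt Leu stood apart, with an interaction of -1.72 (adjusted p = 3.43e-05). Eif5, an initiation factor that acts on eIF2, fell in both genotypes, from 437, 442 and 371 to 267, 252 and 230 CPM in Wt and from 584, 559 and 541 to 200, 209 and 233 CPM in Gcn. The fall was larger in Gcn, by -0.65 (adjusted p = 0.00497). Tfrc, the transferrin receptor, Xpot, the tRNA exporter, and Pabpc1, a poly(A)-binding protein, were called at -0.72, -0.46 and -0.40, and these calls were lost under 12, 11 and 13 of 21 alternatives (highest adjusted p = 0.17, 0.125 and 0.113).

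Whether the GCN2 dependence differed between the withheld amino acids was tested directly, as the leucine interaction minus the arginine interaction, in which the unstarved libraries cancel. It was called for 10 of 16924 genes (0.0591%), 8 higher (0.0473%) and 2 lower (0.0118%), with 1003 at an unadjusted p under 0.05 and 79 called by DESeq2. The count fell to 1 when any of 8 single libraries was left out, and ran from 1 to 24. The leucine and arginine interactions share their 6 unstarved libraries, so their values are set side by side without a measure of likeness: -4.15 and -4.03 for Chac1, -3.15 and -3.32 for Trib3, -2.61 and -2.87 for Ddit3, -0.91 and -1.02 for Atf4 (leucine first). None of these 4 genes was called in the direct comparison. Gpt2 was called: it stood at 144, 159 and 158 CPM in Wt Leu, 179, 196 and 198 in Wt Arg, 46.3, 42.3 and 42.7 in Gcn Leu and 31.3, 31 and 30.9 in Gcn Arg. Its interaction was -1.29 with leucine and -2.10 with arginine, a difference of 0.81 (95% interval 0.50 to 1.11, adjusted p = 0.0376), and the call was lost under 11 of 20 alternatives, 10 of them single libraries left out (highest adjusted p = 0.145, without Wt Leu 1).

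**Figure D4:**
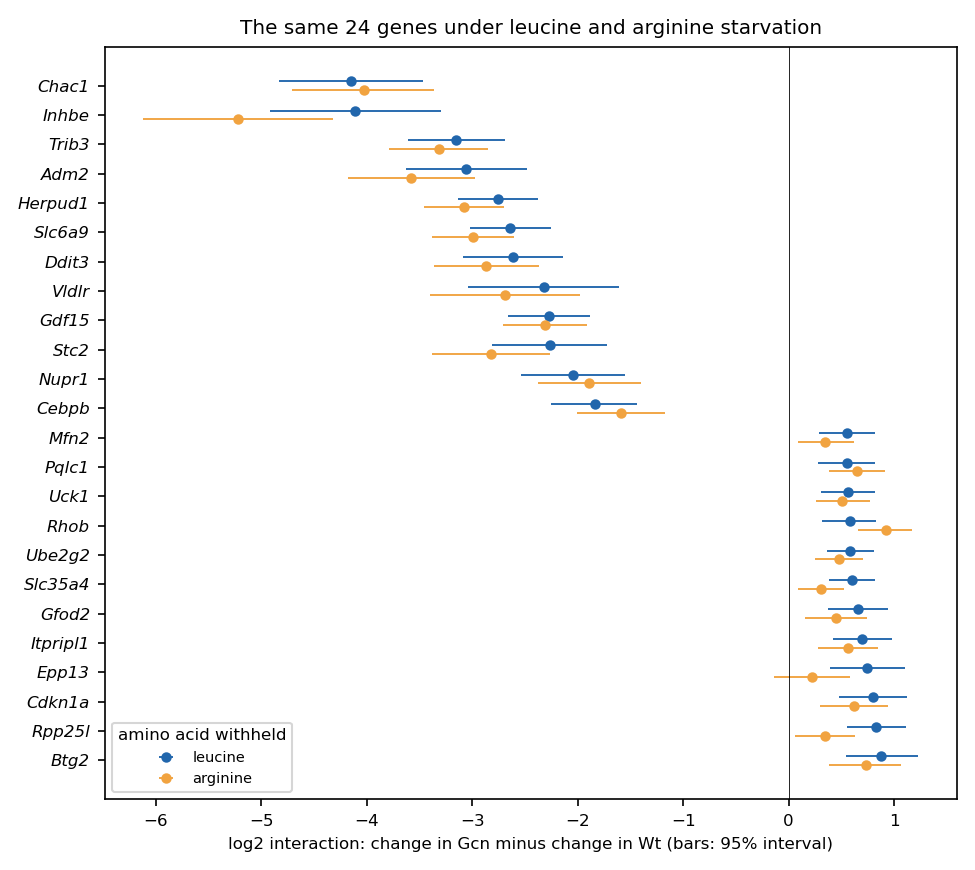
Interaction on the log2 scale (horizontal axis) with leucine (blue) and arginine (orange) withheld, with 95% intervals as bars, for the 12 genes lowest and the 12 highest in the leucine interaction among those reaching 5 CPM. The paired points share the unstarved libraries; Chac1 lies at -4.15 and -4.03, and Btg2 at 0.88 and 0.73.

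Rbm10, a splicing regulator, had the clearest difference between the amino acids. With leucine it stood at 79.2, 83.9 and 86.4 CPM in Wt and 88.5, 78.8 and 78 in Gcn, near the unstarved 90.5, 86.1 and 89.6 (Wt) and 90, 86.8 and 83.2 (Gcn). With arginine it stood at 65.5, 63.3 and 66.5 CPM in Wt and 31.8, 26.2 and 27.8 in Gcn, below every leucine-starved library. The leucine interaction of Rbm10 was 0.01 and that of arginine -1.15, a difference of 1.16 (95% interval 0.93 to 1.39, adjusted p = 6.2e-06), and it stayed called without any 1 of the 12 starved libraries. Ccni (0.85), Lcmt1 (0.76), Selenoi (0.59), Cd9 (0.57), Arf1 (0.53) and Pdia4 (0.51) differed in the same direction, and each of these 6 calls was lost without at least 8 of the 12 starved libraries in turn. Their leucine interactions ran from -0.20 to 0.14 and none was called. Cln8, an ER membrane protein, differed the other way (-0.56): it was at 0.02 in Wt with leucine and fell by 0.60 in Gcn, an interaction of -0.62 (adjusted p = 0.0013), against -0.07 with arginine, and the call of the difference was lost under 10 of 20 alternatives. Zfp423 (interaction -1.07 with leucine, -0.29 with arginine), Rrp9 (-0.65 and -0.15) and Nop14 (-0.64 and -0.19) were called with leucine and not with arginine, but the direct comparison did not reach the threshold for any of them (adjusted p = 0.0776, 0.0739 and 0.0776).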

How the data were processed

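The members and gene lists were chosen with earlier results of these data known. RNA-seq libraries (18, in 6 groups of 3) were deposited by the authors as raw counts per Ensembl gene, 1 table per genotype, joined here by gene ID. Reads were processed against GRCm38, and the submitters' processing notes name STAR 2.7.4a and HTSeq, and besides these DESeq2, DESeq 1.30.1, FastQC 0.11.7, R 4.0.3 and bcl2fastq. Neither the annotation release nor the strand setting is given in the sources used here, so reads of overlapping and antisense genes cannot be told apart. The authors' normalized tables, scaled separately per genotype, were not used. Of 55471 IDs, 55144 matched a symbol, and the others held at most 0.015% of a library's counts.

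Counts of the 18 libraries were fitted with edgeR 4.0.16 (R 4.3.3; filterByExpr over 6 groups, TMM, robust quasi-likelihood fit, group means without a block), which left 16924 genes and a common biological coefficient of variation of 0.0944. All contrasts came from this fit, with Benjamini-Hochberg adjustment over the 16924 genes and a threshold of 0.05. CPM were scaled by TMM. The 12 libraries compared held 21.3 to 38.8 M counts. No replicate pair was a duplicate: chi-square per degree of freedom ran from 8.34 to 34.8. Genes named were the 12 lowest and 12 highest called interactions reaching 5 CPM, the 6 largest shared changes each way, up to 6 opposite changes each way, up to 5 called members of each list, and known ATF4 pathway genes; not every one is printed. Further genes, chosen after their values were seen, were Ifrd1, Tsc22d3, Eif5, Tfrc, Xpot, Pabpc1, Hrk, Zfp423, Slc7a5, Nfe2l1 and Lars, and those under other observations. The scripts were tested on simulated data. DESeq2 1.42.0, limma-voom (limma 3.58.1), other scalings, other library sets and fits with the replicate number were alternatives. Promoters are RefSeq sequences of GRCm38.p6.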

Additional observations from a re-analysis of the deposited data

Results flagged for a closer look

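Among the genes whose interaction is described in the results, other than those under other observations, 62 had a change with leucine starvation that differed between Gcn and Wt in the test of the difference itself (edgeR, adjusted p under 0.05, n = 3 per group). The values are changes in Gcn minus changes in Wt on the log2 scale. At -1.5 or below lay Chac1 (-4.15), Inhbe (-4.11), Trib3 (-3.15), Slc7a11 (-3.14), Adm2 (-3.06), Herpud1 (-2.76), Slc6a9 (-2.64), Ddit3 (-2.61), Vldlr (-2.32), Gdf15 (-2.27), Stc2 (-2.26), Nupr1 (-2.04), Cebpb (-1.84), Atf3 (-1.83), Slc1a4 (-1.72), Tsc22d3 (-1.72), Ifrd1 (-1.69), Vegfa (-1.62), Hrk (-1.57) and Jdp2 (-1.52). Between -1.5 and -0.65 lay Gpt2 (-1.29), Ciart (-1.25), Slc7a1 (-1.21), Zfp423 (-1.07), Atf4 (-0.91), Mthfd2 (-0.90), Xbp1 (-0.77), Aldh18a1 (-0.74), Slc3a2 (-0.73), Tfrc (-0.72), Iars (-0.70), Nr1d1 (-0.67), Eif5 (-0.65), Nr1d2 (-0.65), Slc7a5 (-0.65) and Rrp9 (-0.65). The others that were lower were Nop14 (-0.64), Ppp1r15a (-0.63), Cln8 (-0.62), Cebpg (-0.60), Nfe2l1 (-0.59), Aars (-0.55), Dhcr7 (-0.55), Sesn2 (-0.53), Nars (-0.50), Xpot (-0.46), Tars (-0.45) and Pabpc1 (-0.40). The genes whose change was higher in Gcn were Btg2 (0.88), Rpp25l (0.83), Cdkn1a (0.80), Epp13 (0.74), Itpripl1 (0.70), Gfod2 (0.66), Slc35a4 (0.60), Ube2g2 (0.58), Rhob (0.58), Uck1 (0.56), Mfn2 (0.55), Pqlc1 (0.55), Pced1b (0.53) and Cdc25a (0.50).

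The 10 genes whose genotype difference itself differed between the amino acids, by the test of the leucine interaction minus the arginine interaction, were Rbm10 (1.16), Ccni (0.85), Gpt2 (0.81), Lcmt1 (0.76), Selenoi (0.59), Cd9 (0.57), Arf1 (0.53), Pdia4 (0.51), Cln8 (-0.56) and Gm10131 (-1.25). With any of 8 single libraries left out, 1 gene was called in that comparison.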

How the results depend on the processing

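Among the named genes and the 10 genes of the amino acid comparison, no called value changed sign under the alternatives run. Of 62 named called genes, 42 stayed called under all 21, and Inhbe and Slc7a11 under the 20 run for them, since DESeq2 gave them no adjusted p. The leucine interaction called 139 genes, 138 with DESeq2 size factors, 157 with library size only (103 shared, with a shift of the median of all genes to 0.06), 148 with limma-voom, 104 in a fit of the 12 libraries alone and 128 without the 3 Gcn libraries numbered 1 (97 shared). It called 353 genes with no filter on low counts and 373 with DESeq2 (125 shared). Leaving out 1 library at a time gave 74 to 257: 91, 87 and 85 without Wt Leu 1, 2 and 3, 80 without Wt Unstarved 3, 85 and 74 without Gcn Unstarved 1 and 2, and 82 and 257 without Gcn Leu 2 and 3. Named calls lost ran from 1 without Gcn Leu 3 to 17 without Gcn Unstarved 2, with 9 lost without the Gcn libraries numbered 1.

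Same-numbered libraries deviated together with correlations of 0.049 to 0.463, 5 of 6 over 0.1, and 11 of 12 libraries correlated best with their own number, a hint from the data and not the design. With the replicate number as a block, the leucine interaction called 1878 genes (1867 with a GC correction as well), all 139 among them, and no named call was lost. The Wt change called 6321 (6310) against 3706 and the Gcn change 7067 (7406) against 4665. With the block, the interactions of Asns (adjusted p = 0.00816, edgeR) and Ddit4 (adjusted p = 0.000234) were called. The correlation of GC content with the interaction over 16906 genes was 0.27 (Spearman, across genes). With the change in Wt it was -0.251, and with the change in Gcn -0.012.

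The comparison of leucine with arginine called 10 genes, and 61 with no filter, 79 with DESeq2, 429 with the block, 592 with the block and a GC correction, and 30 without the Gcn libraries numbered 1. Leaving out 1 library gave 1 to 24: 1 without Wt Arg 1, 2 or 3, Wt Leu 1 or 3, Gcn Arg 2 or 3 or Gcn Leu 2, 5 without Wt Leu 2 and 24 without Gcn Arg 1. The fit of 12 libraries gives no value for it. The unstarved genotypes differed in 5548 genes, a count that stayed within 1.5 times under every alternative without the replicate number. The fits with the replicate number compare the genotypes at replicate 1, which is another quantity. Where a setting moved a count, the cause was not tested. Depth limits the low genes most: Inhbe and Slc7a11 rest on a few CPM.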

Other observations

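The genes in the following sentences lie outside the gene lists and were chosen after their values were seen. G0s2, an inhibitor of adipose triglyceride lipase, stood at 0.939, 0.908 and 1.77 CPM in Wt Unstarved, 3.1, 6.15 and 4.73 in Wt Leu, 1.83, 1.44 and 1.91 in Gcn Unstarved, and 1.1, 0.936 and 0.986 in Gcn Leu. It changed by 2.00 in Wt and -0.78 in Gcn, an interaction of -2.78 (SE 0.40, adjusted p = 0.000559, edgeR). Arl14ep went from 60, 53.1 and 49.5 to 118, 117 and 114 CPM in Wt and from 64.4, 60.2 and 55.5 to 70.5, 70.7 and 75.6 CPM in Gcn, an interaction of -0.83 (adjusted p = 0.000192, edgeR). The Wt Leu libraries of Arl14ep lay above all others. Klf9, a zinc finger transcription factor, went from 129 ± 5.7 to 217 ± 8.3 CPM in Wt and from 122 ± 5.3 to 148 ± 3.3 CPM in Gcn (SD, n = 3), with an interaction of -0.48. Mest, an imprinted gene, fell from 232 ± 7.1 to 197 ± 4.6 CPM in Wt and from 168 ± 6.6 to 95.8 ± 3.9 CPM in Gcn (SD, n = 3), with an interaction of -0.58. Podxl, a sialomucin of pluripotent cells, had an interaction of -0.81, made up of -0.13 in Wt and -0.93 in Gcn.

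Nodal, a TGF-beta family ligand that acts in the early embryo, stood at 96.2, 99.6 and 108 CPM in Wt Unstarved, 115, 115 and 120 in Wt Leu, 97, 109 and 105 in Gcn Unstarved, and 164, 173 and 149 in Gcn Leu. The starved Gcn libraries of Nodal stood above the other 9, and its interaction was 0.45 (adjusted p = 0.0422, edgeR). The 2 called genes whose interaction was at least 1 in the higher direction both lay at low levels. Neurog3, a proneural transcription factor, went from 0.942 ± 0.15 to 1.5 ± 0.46 CPM in Wt and from 0.49 ± 0.14 to 2.84 ± 0.64 CPM in Gcn (SD, n = 3), an interaction of 1.90. Tspan12, a tetraspanin, went from 1.53 ± 0.29 to 1.38 ± 0.41 CPM in Wt and from 0.464 ± 0.088 to 1.2 ± 0.063 CPM in Gcn (SD, n = 3), an interaction of 1.57.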
